A study of Homo sapiens with 6 samples.

Results

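The chromatin sites described here are 474 peaks of V5-tagged GSE1 in DMSO-treated NB4 cells. They lay at promoters of long non-coding RNA (lncRNA) genes and away from the start sites of protein-coding transcripts. A peak was included when its nearest edge was within 1 kb of the transcription start site (TSS) of a GENCODE version 44 lncRNA transcript and more than 1 kb from the TSS of every protein-coding transcript. Transcripts of any other type, also those of coding genes, did not exclude a peak. When their TSSs too had to be over 1 kb away, 407 peaks remained. The choice used position only, neither the strength of a peak nor its fate after treatment. Chromosomes 1 to 22 and X were used except 7, 8, 9, 12 and 19. The DMSO list held 21401 peaks, 9214 of them on the chromosomes used, and of these 1193 lay within 1 kb of a protein-coding TSS and 7547 were neither. The outermost peak included, at LINC02952, was 996 bp from its TSS with a score of 114.92, and the first one beyond, at LINC01819, was 1005 bp away with a score of 92.14.

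The NB4 line was derived from human acute promyelocytic leukaemia. Its cells were transduced with lentivirus carrying the pLEX_307 vector, either empty (EV) or encoding 1 GSE1 isoform with a V5 tag, and chromatin immunoprecipitation with an anti-V5 antibody was followed by sequencing (ChIP-seq). Cells expressing V5-GSE1 received the LSD1 inhibitor MC2580 at 2 µM for 24 h, or its vehicle DMSO for the same time, while the EV cells had no treatment. There were 6 libraries, 3 ChIPs and 3 inputs, with 1 library in each group, so the 2 peak lists compared below carry no replicate error and the conditions were not tested against each other. The sites are those of an exogenous, overexpressed isoform, and binding of the endogenous protein was not measured.

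LncRNA genes are transcribed by RNA polymerase II and their promoters carry the same kinds of chromatin marks and factors as those of coding genes. Many of them are active in only 1 or a few cell types, some serve as precursors of microRNAs, and some start within enhancers. GSE1 is a subunit of corepressor complexes that contain the histone demethylase LSD1 and histone deacetylases, which in blood cells are brought to promoters and enhancers by DNA-binding factors such as GFI1.

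The sequences below show the centres of the strongest sites of either fate and of lncRNA genes with a known place in myeloid cells. Each is 200 bp of the plus strand of hg38 around the centre of a peak. Capitals mark a consensus word of one of the transcription factors examined further on, and a sequence with no capitals held none of the words. The first 4 belong to peaks with no MC2580 counterpart, and LUCAT1, a lncRNA induced by stress and interferon in myeloid cells, is shown for its 3 AP-1 words.
ENSG00000289531, chr14:50061497-50061696: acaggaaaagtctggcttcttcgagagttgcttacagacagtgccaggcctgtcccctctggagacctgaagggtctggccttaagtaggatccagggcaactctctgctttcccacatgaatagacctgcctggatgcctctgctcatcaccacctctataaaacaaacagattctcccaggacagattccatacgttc
LINC02265, chr4:40316934-40317133, AP-1: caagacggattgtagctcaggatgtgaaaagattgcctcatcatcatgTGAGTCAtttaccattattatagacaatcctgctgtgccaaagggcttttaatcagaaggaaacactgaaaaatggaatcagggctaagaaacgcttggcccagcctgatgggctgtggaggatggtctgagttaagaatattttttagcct
LINC00598, chr13:40402277-40402476: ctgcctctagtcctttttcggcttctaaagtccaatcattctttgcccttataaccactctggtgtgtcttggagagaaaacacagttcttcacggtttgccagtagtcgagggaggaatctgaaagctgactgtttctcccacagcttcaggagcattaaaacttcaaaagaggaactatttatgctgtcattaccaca
LUCAT1, chr5:91311899-91312098, AP-1: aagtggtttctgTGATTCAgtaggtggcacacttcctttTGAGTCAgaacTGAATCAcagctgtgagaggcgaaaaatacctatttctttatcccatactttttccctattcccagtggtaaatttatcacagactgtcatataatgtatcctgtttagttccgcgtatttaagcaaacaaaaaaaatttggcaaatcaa

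The other 5 belong to peaks that overlapped an MC2580 peak. The last of these are the promoters of MIR3142HG, the host gene of the inflammatory regulator miR-146a, and of MIR223HG, the host gene of the myeloid microRNA miR-223. The marked words are a PU.1 word in ENSG00000289391, a PU.1 word on the minus strand in MIR3142HG, and in MIR223HG a GATA word followed by an interferon-stimulated response element (ISRE), both on the minus strand. PU.1 is the ETS factor that governs myeloid development.
ENSG00000289391, chr11:121417227-121417426, PU.1: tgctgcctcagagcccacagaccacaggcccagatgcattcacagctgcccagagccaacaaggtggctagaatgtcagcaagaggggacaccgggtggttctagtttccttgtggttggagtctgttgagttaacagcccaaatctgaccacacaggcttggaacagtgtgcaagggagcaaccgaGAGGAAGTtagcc
ENSG00000273980, chr10:133258561-133258760: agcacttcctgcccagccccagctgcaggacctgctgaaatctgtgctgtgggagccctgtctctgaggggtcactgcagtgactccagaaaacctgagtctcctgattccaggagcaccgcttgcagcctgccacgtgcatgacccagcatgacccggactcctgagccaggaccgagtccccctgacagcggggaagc
LINC01686, chr1:182616177-182616376: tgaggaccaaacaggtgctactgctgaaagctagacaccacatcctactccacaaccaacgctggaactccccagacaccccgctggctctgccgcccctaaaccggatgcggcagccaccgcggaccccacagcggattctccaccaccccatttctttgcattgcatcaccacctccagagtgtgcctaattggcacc
MIR3142HG, chr5:160467783-160467982, PU.1: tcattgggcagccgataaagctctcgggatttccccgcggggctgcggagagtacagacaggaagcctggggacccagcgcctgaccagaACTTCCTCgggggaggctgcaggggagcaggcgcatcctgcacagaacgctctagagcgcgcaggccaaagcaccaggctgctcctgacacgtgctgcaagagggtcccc
MIR223HG, chrX:66015273-66015472, GATA and ISRE: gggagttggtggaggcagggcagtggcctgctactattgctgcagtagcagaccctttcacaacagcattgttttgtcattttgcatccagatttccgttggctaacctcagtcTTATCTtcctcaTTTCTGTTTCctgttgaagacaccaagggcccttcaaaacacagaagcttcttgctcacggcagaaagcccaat

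The 474 peaks were assigned to 423 different lncRNA genes by the nearest TSS. Where a peak held several TSSs, the one of lowest coordinate was taken. More than 1 lncRNA gene lay within 1 kb of 29 peaks, and sites are named by the assigned gene only. Most genes had 1 peak, and 40 genes shared the other 91, so those peaks have a common neighbourhood. The most at 1 gene were 5, at CROCCP2, followed by 4 at DLEU1. The peaks made up from 2.32% of the DMSO peaks on chromosome 4 to 11.0% on chromosome 14. On chromosome 2, which held the most, there were 73 of 1106.

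The TSS itself lay inside 252 of the 474 peaks (53.2%, Wilson 95% interval 48.7 to 57.6), and the other 222 lay beside it. The centre was within 500 bp of the assigned TSS in 237 peaks. It was downstream, that is on the transcribed side, in 220 peaks (46.4%, 42.0 to 50.9). Where a peak held several TSSs, the assigned one was that of lowest coordinate, not that nearest to the centre. These counts therefore cannot show whether either side of the start site was preferred. Most of the sites were far from coding promoters as well. The median distance to the nearest protein-coding TSS was 33072 bp (95% interval 29204 to 37338), with 105 peaks within 10 kb and 95 over 100 kb away. With respect to coding genes, 341 peaks (71.9%) lay between genes and 133 inside a gene. Among the latter, the lncRNA ran on the strand opposite to the host gene in 106, on the same strand in 25, and the host genes lay on both strands in 2. An exon of a protein-coding transcript was touched by 41 peaks.

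**Figure D1:**
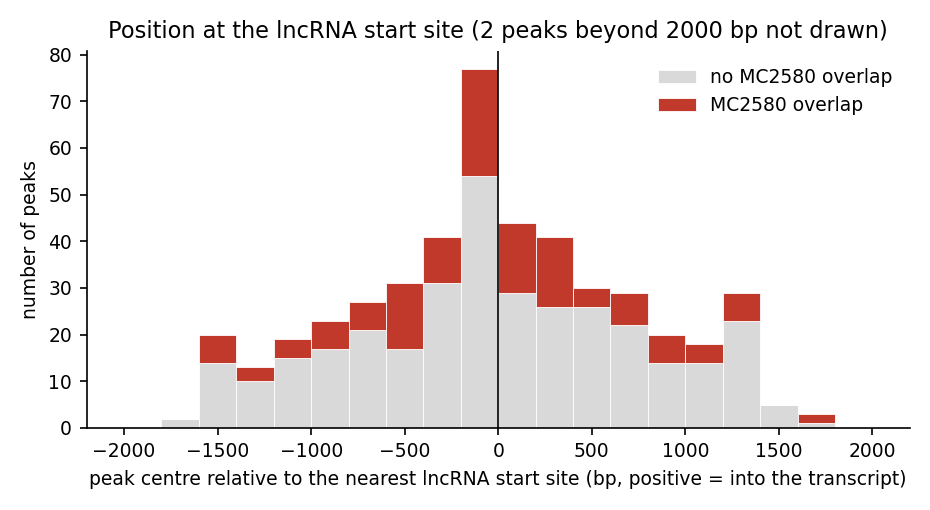
Number of peaks at lncRNA-only promoters by the distance of the peak centre from the assigned lncRNA start site in bp. Positive values lie in the transcript. Bars are stacked by whether the peak overlapped an MC2580 peak (red) or not (grey). Where a peak held several start sites, the distance is from the one of lowest coordinate. The 2 peaks with a centre beyond 2000 bp are not drawn, and the tallest bars sit next to the start site on either side.

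The strength of each peak is given by the score that the authors deposited, which is minus 10 times the log10 of the peak caller's p-value. The threshold of 1e-05 corresponds to a score of 50, and the value 3100 recurs among the strongest peaks. The score grows with sequencing depth, which is unknown here, so it ranks peaks within a list only. At lncRNA-only promoters the scores ran from 51.96 to 3100 with a median of 104.56 (95% interval 97.77 to 117.46). The median was 96.76 (90.77 to 101.51) at protein-coding promoters and 94.94 (93.17 to 96.7) over all 9214 peaks. The peaks had a median width of 1009 bp (982 to 1038), and 2 of them had the score of 3100. Bins of 1 Mb with at least 40 peaks held 43 of the 474 (9.07%) and 12.7% of all peaks.

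After treatment with MC2580, most lncRNA-only promoter sites had no peak. At 133 of the 474 (28.1%, 24.2 to 32.3) a peak of the MC2580 list overlapped by at least 1 bp, against 25.4% of all DMSO peaks on these chromosomes (2340 of 9214). The remaining 341 had no overlapping peak. The share was close to this background: it exceeded that of all other peaks by 2.81 percentage points, with a Newcombe 95% interval from -1.16 to 7.11 that includes 0. It was higher than at protein-coding promoters, where 251 of 1193 peaks overlapped (21.0%, 18.8 to 23.4), by 7.02 points (2.48 to 11.8). These intervals cover counting error over peaks of 1 library each, not the error of the treatment. When the coding peaks were weighted to the score deciles of the lncRNA-only peaks, the difference was 3.96 points (-0.0564 to 7.97) and its interval reached 0.

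**Figure D2:**
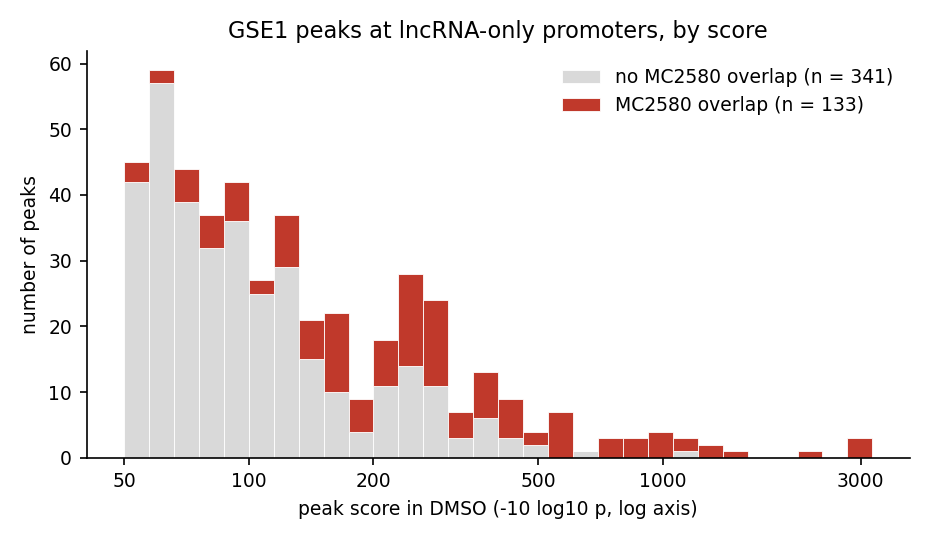
Number of peaks at lncRNA-only promoters by DMSO score (log axis, minus 10 log10 p), stacked by overlap with the MC2580 list. The 133 peaks with an overlap (red) sit mainly to the right of the 341 without (grey), with medians of 248.93 and 87.29.

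Whether a site had an MC2580 counterpart went with its DMSO score. The median score was 248.93 (211.38 to 276.51) for the 133 peaks with an overlap and 87.29 (79.11 to 93.68) for the 341 without. In quintiles of all DMSO peaks by score, the share of lncRNA-only peaks with an overlap was 3.90%, 11.96%, 10.3%, 34.7% and 62.6% from the lowest to the highest. The highest quintile, from a score of 214.312, held 123 of the 474 peaks (25.9%). There, 77 of 123 lncRNA-only peaks and 145 of 230 coding-promoter peaks had an overlap, a difference of -0.442 points (-11.1 to 9.84). Among the peaks at neither kind of promoter it was 1085 of 1490 (72.8%, 70.5 to 75.0), above the 62.6% (53.8 to 70.6) of the lncRNA-only peaks. An interval for this difference was not computed. In the 2 lowest quintiles the lncRNA-only share was the higher by 3.44 points (0.152 to 10.4) and 6.61 points (0.333 to 15.1), from 3 of 77 and 11 of 92 peaks. The intervals in the 2 quintiles between included 0.

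**Figure D3:**
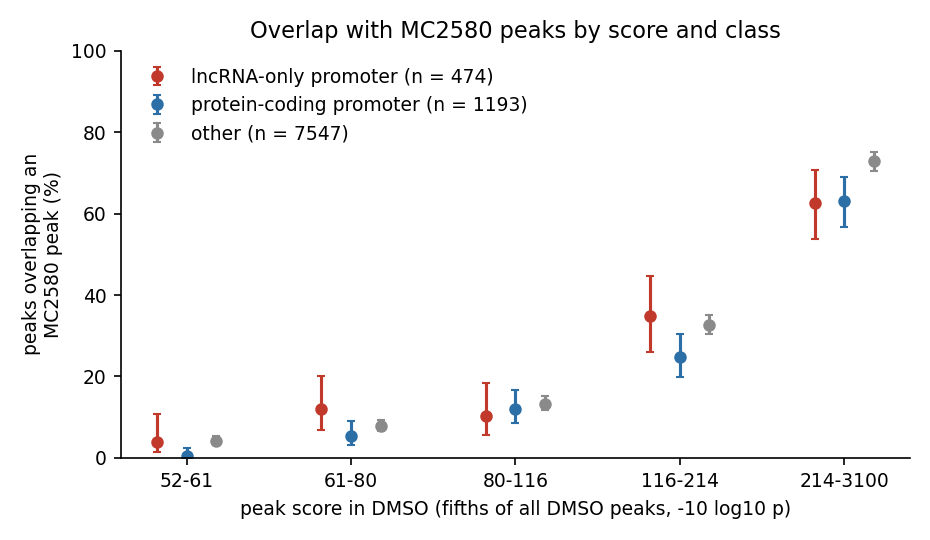
Share of DMSO peaks (%) that overlapped an MC2580 peak, in quintiles of all DMSO peaks by score, for lncRNA-only promoters (red), protein-coding promoters (blue) and other peaks (grey). Points are shares and bars are Wilson 95% intervals for counting error. In the 3 classes the share is below 20% up to a score of 116.49 and above 60% in the highest quintile.

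Peaks that held the lncRNA TSS had a counterpart more often than those beside it. The overlap was 34.1% (28.6 to 40.2) of 252 against 21.2% (16.3 to 27.0) of 222, a difference of 13.0 points (4.88 to 20.7). The former also had the higher scores, with medians of 124.01 and 91.69. Weighted to score quintiles, which was done after seeing the data, the difference was 5.27 points (-2.57 to 13.1). Protein-coding promoters had a like difference, 25.6% of 636 peaks over the TSS and 15.8% of 557 beside it. Position between genes or inside a coding gene (28.4% and 27.1%), distance to a coding TSS (22.9% within 10 kb, 29.5% beyond) and peak-dense bins (32.6% inside, 27.6% outside) gave differences whose intervals included 0. These comparisons of 7 subsets were not adjusted for their number.

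For 123 of the 133 shared sites a single DMSO peak faced a single MC2580 peak and both scores were below 3100. The MC2580 score was the lower in 117 of them (95.1%, 89.8 to 97.7). The median score was 233.68 in DMSO and 83 in MC2580, and the median ratio of MC2580 to DMSO was 0.478 (0.401 to 0.575). The MC2580 score was the lower in 90.1% of the 2089 such pairs of all classes. At protein-coding promoters it was so in 97.5% of 236 pairs, with a median ratio of 0.376 (0.360 to 0.416), and at the other peaks in 88.7% of 1730, with 0.444 (0.425 to 0.465), which lies within the interval at lncRNA-only promoters. Occupancy, the amount of V5-GSE1 protein and the depth of the library cannot be told apart in these scores. The 6 pairs that went the other way were at ENSG00000290801 (545.11 in DMSO and 602.61 in MC2580), ENSG00000237530 (276.51 and 433.05), ENSG00000271788 (92 and 120.81), ENSG00000228156 (65.83 and 77.12), CROCCP2 (54.09 and 87.9) and ENSG00000287403 (54.01 and 54.09). They were named after their values were seen, as were the following pairs with low ratios. At ENSG00000286301, nearest to the class I histocompatibility gene HLA-E at 37777 bp, the score was 779.74 in DMSO and 70.4 in MC2580. At ENSG00000286153 it was 922.64 and 93.26.

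**Figure D4:**
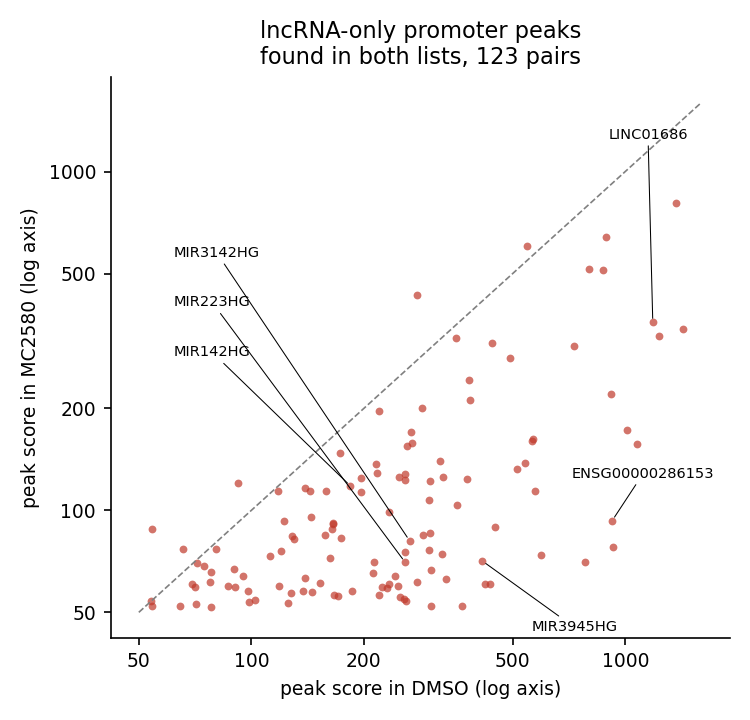
DMSO and MC2580 scores (log axes) of the 123 lncRNA-only promoter peaks found in both lists, 1 point per peak, with the line of equal scores dashed. 117 points lie below the line, and MIR223HG, MIR3142HG, MIR3945HG and MIR142HG are among them.

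The strongest site without an MC2580 peak was at ENSG00000289531 on chromosome 14 (50060598 to 50062594, hg38), 147 bp from its TSS and between genes, with a DMSO score of 1099.53. Next were LINC02265 on chromosome 4 (40316411 to 40317656) with 673.57, which lay in a peak-dense bin, and LINC00598 on chromosome 13 (40401800 to 40402952) with 511.7. LUCAT1 on chromosome 5 (91311349 to 91312648) followed with 492.05, and its TSS was inside the peak. The other 8 of the 12 highest ran from 450.53 at ENSG00000288801, through LINC02970 (413.08), ENSG00000287484 (410.26), ENSG00000286893 (392.2), ENSG00000259407 (379.19), ENSG00000289010 (375.67) and ENSG00000286373 (372.36), to ENSG00000289409 (359.59). All 12 lay between coding genes. The nearest coding gene was 6832 bp away for ENSG00000287484, where it was CTSD, which encodes the lysosomal protease cathepsin D, and 263689 bp away for LINC00598, where it was the transcription factor gene FOXO1. The score of ENSG00000289531 was above those of all but 8 lncRNA-only peaks, so the loss of a peak was not confined to weak sites.

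The 8 strongest sites with a counterpart included 4 of unusual width or score. ENSG00000226578 on chromosome 10 had a peak of 33173 bp and ROCK1P1, a pseudogene-derived transcript on chromosome 18, one of 4709 bp, each with a score of 3100 in both lists. ENSG00000276241 on chromosome 17, 5849 bp from the chemokine gene CCL4, had a peak of 14871 bp with scores of 2852.84 in DMSO and 2039.48 in MC2580. ENSG00000290523 on chromosome 21 had one of 7107 bp with 2359.19 and 1921.33. Peaks this wide need not mark a single promoter. The next 4 were of usual or moderate width. ENSG00000289391 on chromosome 11 (121416685 to 121417967), nearest to the sorting receptor gene SORL1 at 34347 bp, had 1422.39 in DMSO and 342.82 in MC2580. ENSG00000287094 on chromosome 6, antisense within AHI1, had 1370.24 and 805.96, and this peak also touched an exon of AHI1. ENSG00000273980 on chromosome 10 (133257230 to 133260091), nearest to the leukocyte metalloprotease gene ADAM8 at 16759 bp, had 1232.44 and 326.06. LINC01686 on chromosome 1 (182615614 to 182616938), 11225 bp from its nearest coding gene RGS16, a regulator of G protein signalling, had 1184.59 and 358.42.

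Among 60 lncRNA genes chosen for a role in blood cells or leukaemia, 53 were on the chromosomes used and found in the annotation, and 17 of these had a lncRNA-only promoter peak. The share of all annotated lncRNA genes with such a peak was not counted, and the list was made with earlier results of these data known. The 17 of 53 therefore cannot show whether such genes were favoured. The 17 genes held 23 peaks with a median score of 89.36, against 104.56 for all lncRNA-only peaks, and 4 of the 23 (17.4%, 6.98 to 37.1) overlapped an MC2580 peak. The 28.1% of all lncRNA-only peaks and the 25.4% of all DMSO peaks lie within that interval. The 4 were MIR3945HG with 414.8 in DMSO and 70.86 in MC2580, DLEU1, of the region deleted in lymphocytic leukaemia, with 355.18 and 103.94 at the strongest of its 4 peaks, MIR3142HG with 264.88 and 81.37, and MIR223HG with 257.72 and 70.26. The MC2580 score was the lower at each. The other 3 peaks of DLEU1, with 97.95, 95.85 and 64.66, had no counterpart.

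The remaining 13 genes had no overlapping MC2580 peak, although DLEU2 had one elsewhere within 1 kb of a TSS. After LUCAT1 the strongest was EGOT, a transcript of developing eosinophils antisense within ITPR1, with 295.65. DLEU2, host gene of miR-15a and miR-16-1, had 133.06 and LINC01588 had 124.57. PELATON, expressed in monocytes and macrophages, had peaks of 90.97 and 77.7. NEAT1, the scaffold of nuclear paraspeckles, had 89.36 and 52.44, and MALAT1, a nuclear speckle RNA, had 79.1, and these 3 peaks lay in a peak-dense bin on chromosome 11. LINC00877 had 87.6 and 57.53. MIR100HG (63.71), JPX (60.13), CRNDE (58.45), TSPOAP1-AS1 (56.34) and HCG27 (53.86) were near the calling threshold. At such scores the absence of a counterpart carries little information, as 3.90% of the lncRNA-only peaks of the lowest score quintile had one.

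MicroRNA host genes, recognised by their symbols, had 7 of the 474 peaks. The 4 strongest of them overlapped an MC2580 peak: besides MIR3945HG, MIR3142HG and MIR223HG this was MIR142HG on chromosome 17 (58332144 to 58333807), host gene of the haematopoietic microRNA miR-142, with 184.08 in DMSO and 118.01 in MC2580. The 3 weakest did not, at MIR100HG, MIR130AHG (58.56) and MIR9-3HG (52.63). The share of 57.1% has an interval from 25.0 to 84.2, which takes in the share of all lncRNA-only promoters. LINC genes had 94 peaks with 22 overlaps (23.4%, 16.0 to 32.9), antisense genes named for a coding partner 55 with 14 (25.5%, 15.8 to 38.3), and genes known by an identifier alone 261 with 79 (30.3%, 25.0 to 36.1). The groups' intervals overlap.

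For some sites the nearest coding gene was one of myeloid biology, though not a close one. Of 17 coding genes listed for such a role, 3 were the nearest coding gene of a peak, with 5 peaks in all. Each of the 5 was farther from the coding TSS than the median of 33072 bp. The share of all coding genes that were nearest to a peak was not counted, so 3 of 17 cannot be set against it. ENSG00000286153 runs antisense within RUNX1, the haematopoietic transcription factor gene, and its peak (chromosome 21, 34834877 to 34836771) was 50412 bp from the nearest coding TSS. ENSG00000269667, 67992 bp from the TSS of IRF8, which encodes an interferon regulatory factor of the monocyte lineage, had 223.12 in DMSO and 59.56 in MC2580. LY86, which encodes a partner of a Toll-like receptor homologue, was the nearest coding gene for peaks at 3 different lncRNA genes. These peaks of 161.31, 88.13 and 67.73 had no counterpart and lay 122933, 135936 and 96478 bp from the LY86 start site. The region beside CEBPB, the gene of a myeloid C/EBP factor, was noticed after the values were seen and held the most peaks for 1 nearest coding gene. PELATON, LINC01270 and LINC01271 had 6 peaks there, 56996 to 131140 bp from the CEBPB start site, with scores from 57.22 to 108.19. The peak at LINC01270 with 98.48 in DMSO overlapped one of 53.65 in MC2580, and the other 5 had no counterpart. In the score quintiles that these 6 peaks fall in, 3.90% to 11.96% of all lncRNA-only peaks had one.

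The same rule applied to the MC2580 list gave 169 lncRNA-only promoter peaks, a ratio to DMSO of 0.357 (0.299 to 0.425). The ratio was 0.283 (0.251 to 0.320) at protein-coding promoters and 0.432 (0.416 to 0.448) over all peaks of these chromosomes. The intervals of lncRNA-only and coding promoters overlapped. Of the 169, 41 (24.3%, 18.4 to 31.2) did not overlap a DMSO peak, against 39.6% of all 3976 MC2580 peaks on these chromosomes and 30.2% (25.5 to 35.3) of those at coding promoters. Their median score was 57.01, the same as that of all MC2580 peaks without a DMSO overlap. The highest, at ENSG00000234918, had 120.29 and lay in a peak-dense bin, as did LINC02517 with 90.99. SNHG1, a snoRNA host gene, had 77.82 with its TSS inside the peak, and MIR9-3HG had 71.34 at a place other than its DMSO peak. MIR4432HG, nearest to the gene of the transcription factor BCL11A at 69456 bp, had 71.04.

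The sequence at these sites differed from that at coding promoters. CpG-rich centres, with an observed to expected CpG ratio of at least 0.6 and a GC content of at least 50% over 200 bp, made up 10.5% of lncRNA-only peaks (8.09 to 13.6) and 30.1% of coding-promoter peaks, a difference of -19.5 points (-23.2 to -15.5). The median GC content of the lncRNA-only centres was 53% and the median CpG ratio 0.288. Among the lncRNA-only peaks, 30.0% of the 50 CpG-rich and 27.8% of the other 424 had an MC2580 counterpart, which did not differ beyond counting error (2.17 points, -9.60 to 16.5).

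Consensus words of 7 factors or elements were counted on both strands in the 200 bp windows: GAGGAAGT for PU.1, TGTGGTTT for RUNX, AAATCAC for GFI1, TTGCGCAA for C/EBP, TGANTCA for AP-1, AGATAA for GATA, and the ISRE. Since N stands for any base, the AP-1 word also takes the TGATTCA and TGAATCA marked at LUCAT1. No word contains another, and a match is a run of letters, not a bound factor. The PU.1 word was in 5.49% of the 474 windows (3.77 to 7.92), the RUNX word in 6.33% (4.47 to 8.89) and the AP-1 word in 12.9% (10.2 to 16.2). In windows 2000 bp to either side of the same peaks they were in 1.69%, 1.69% and 6.12%, and the differences of 3.80 points (1.79 to 6.31), 4.64 points (2.51 to 7.28) and 6.75 points (3.54 to 10.3) excluded 0. The GATA word was in 11.6% of the centres and 10.3% of the flanks, the GFI1 word in 4.01% and 2.95%, the ISRE in 2.32% and 3.80%, and the C/EBP word in 0.211% and 0.105%, with differences whose intervals included 0. The flanks came from the same peaks as the centres, but these intervals treat centres and flanks as independent. Over all 9214 peaks the shares were 4.27% for PU.1, 7.36% for RUNX, 4.00% for GFI1, 0.271% for C/EBP, 12.03% for AP-1, 11.0% for GATA and 2.93% for the ISRE.

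Against coding promoters, the AP-1 word was more frequent by 4.82 points (12.9% and 8.05%, interval 1.63 to 8.43) and the GATA word by 4.14 points (11.6% and 7.46%, 1.09 to 7.62), while the intervals for the other 5 words included 0. AP-1 factors such as FOS and JUN are activated by stress and differentiation signals, and GATA factors act in progenitors, erythroid cells and mast cells. The share of CpG-rich centres differed between the 2 classes of peaks, and its part in these differences was not tested. For none of the 7 words did the interval of the difference between lncRNA-only peaks with and without an MC2580 overlap exclude 0. The largest such difference was 5.82 points for GATA (15.8% of 133 and 9.97% of 341, interval -0.548 to 13.5). Of the 474 windows, 307 held none of the words, among them those of ENSG00000289531, LINC00598, ENSG00000273980 and LINC01686. The 21 intervals were not adjusted for their number.

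**Figure D5:**
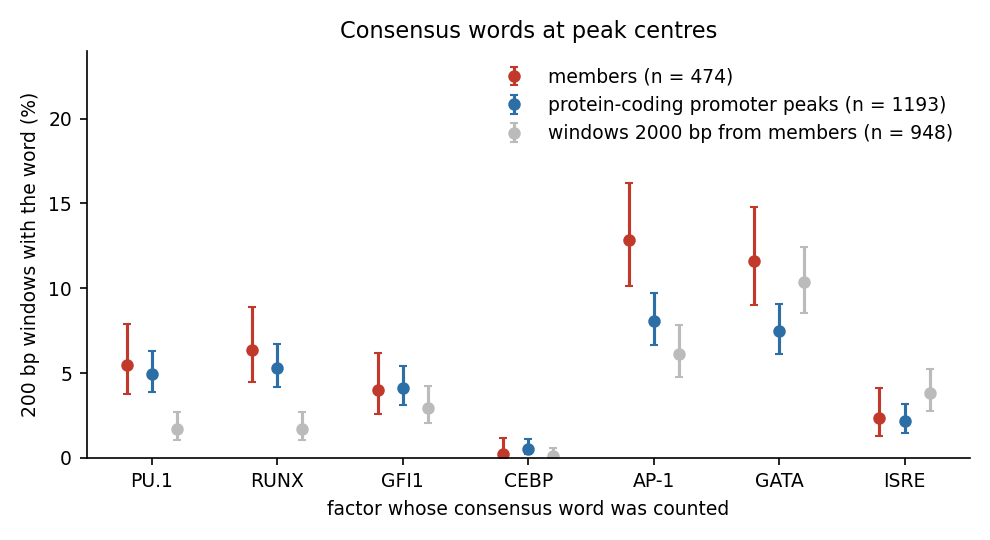
Share (%) of 200 bp windows that held each consensus word, at the centres of lncRNA-only promoter peaks (red), at those of protein-coding promoter peaks (blue) and 2000 bp to either side of the lncRNA-only peaks (grey). Points are shares and bars are Wilson 95% intervals for counting error. The red points for PU.1, RUNX and AP-1 lie above the grey ones, and those for AP-1 and GATA above the blue ones.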

How the data were processed

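Per the labels and the study's methods, the authors aligned reads to hg38 with Bowtie (given as 4.8.2), retained unique matches with 2 or fewer mismatches, and ran MACS at a p-value of 1e-05 per condition against the respective input and the EV V5 ChIP. How the calls against both backgrounds were combined was not stated. Both lists therefore share the EV library. The deposited files are 2 peak lists with a score, which the authors' peak caller gave as minus 10 times the log10 of the p-value. Each list was assigned to its condition from its name. Read depth is unknown, and neither scores nor peak numbers were corrected for it.

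TSSs, exons and lncRNA names came from GENCODE version 44, and a distance was measured from the nearest peak edge. Peaks overlapping by at least 1 bp were counted as shared. Shares have Wilson, differences of shares Newcombe, and medians order-statistic 95% intervals, all for counting error only. The tools were pysam 0.24.0, statsmodels 0.14.6, scipy 1.17.1, pandas 2.3.3 and numpy 2.4.6 under Python 3.11.15. On simulated data 2000 of 2000 peaks and 2000 of 2000 windows were assigned correctly.

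Named loci were the 12 highest-scoring peaks without and the 8 with an MC2580 overlap, all peaks at the 60 listed lncRNA genes, and peaks nearest to 17 listed coding genes. Sequences came from the 3 highest of either group up to 3000 bp wide and free of coding exons. LUCAT1, MIR3142HG and MIR223HG were added after the data were seen. 1 locus is not reported here. The sites and lists were chosen with earlier results of these data known.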

Additional observations from a re-analysis of the deposited data

How the results depend on the processing

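Of 74 values under alternative settings, 57 stayed on the same side of their threshold or within the spread, 12 moved and 5 differences of shares no longer had an interval above 0. None changed direction. With a score of at least 100 in both lists, 247 peaks remained, 23.1% overlapped, the difference from coding promoters was 4.56 points (-1.32 to 10.9), the ratio of peak numbers was 0.231 and the median score 213.44. With that minimum in the DMSO list only, 45.3% overlapped and the difference was 6.59 points (-0.715 to 13.9). With all of chromosomes 1 to 22 and X, there were 916 peaks, 36.0% overlapped, the difference was 3.10 points (-0.497 to 6.77) and the ratio 0.479. Weighting to score deciles gave a difference of 3.96 points, and weighting the peaks over and beside the TSS to score quintiles, added after seeing the data, 5.27 points. In 400 bp windows the words were in 9.49% for RUNX, 20.9% for AP-1, 20.3% for GATA and 5.91% for the ISRE, by construction of the longer window. The other alternatives, among them TSS distances of 500 bp and 2 kb, a distance of over 3 kb from coding TSSs and removal of peak-dense bins, kept the share, the difference, the ratio and the median score. Overlaps of 50%, and an MC2580 peak within 1 kb in place of an overlap, were tried for the share and the difference, which they kept. Leaving out 1 chromosome at a time gave shares from 26.6% (without 17) to 29.5% (without 20), differences from 5.57 to 8.46 points and ratios from 0.334 (without 10) to 0.369 (without 2). Against all other peaks, a comparison outside these 74, the score-decile weighting, added after seeing the data, gave -0.254 points (-3.75 to 3.24). The unweighted difference was 2.81 points (-1.16 to 7.11), so the sign changed, and both intervals included 0.

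No paired analysis was possible because each condition had 1 library, and for the same reason there was no replicate to leave out. The unknown depth limits every statement on loss: the lists do not show how far below the calling threshold a site without an MC2580 peak lay. The difference in overlap from coding promoters rests on peaks of all strengths on the chromosomes used and was not above 0 beyond counting error under the score, weighting and all-chromosome settings.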
